A study of Mus musculus with 44 samples.

Results

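The genes described here are 40 genes of fatty acid oxidation and of the transcriptional programme of PPAR-alpha in mouse liver. They were taken from a list of symbols and matched to the Ensembl identifiers of the count table. All 40 were found among its 35249 genes, and all 40 passed the filter on low counts that left 14862 genes for testing. They comprise 2 transcription factors, 2 genes of fatty acid uptake and binding, 3 of the carnitine shuttle, 11 of mitochondrial beta-oxidation, 3 of electron transfer, 1 ketone body enzyme, 7 peroxisomal genes, 5 omega-hydroxylases, 4 acyl-CoA thioesterases, and the pair Pdk4 and Vnn1.

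RNA from whole liver was sequenced in 44 libraries. The mice were wild type (WT), Ripk3-/- (written Ripk3KO) or Mlkl-/- (written MlklKO), and from 2 months of age they received for 6 months either normal chow (the control diet) or a choline-deficient diet, low in fat (CD-LFD) or high in fat (CD-HFD). RIPK3 and MLKL carry out necroptosis, a lytic form of programmed cell death, which is blocked in the knockouts per the labels, and the comparisons ask how diet acts on liver expression with and without it. The groups held 6 libraries per diet in WT, 6 (control), 3 (CD-LFD) and 4 (CD-HFD) in Ripk3KO, and 6, 4 and 3 in MlklKO. The labels name no strain, sex, litter or collection time, and they do not say that each replicate is a separate animal, so p-values measure the spread between libraries.

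PPAR-alpha is a nuclear receptor of hepatocytes that is activated by fatty acids. It pairs with a retinoid X receptor on DNA elements made of a direct repeat, and in fasting it raises the genes that carry fatty acids into mitochondria and peroxisomes, shorten them there and turn the products into ketone bodies. Mitochondria take acyl groups through the carnitine shuttle and remove acetyl-CoA in rounds of dehydrogenation, hydration, dehydrogenation and thiolysis. Peroxisomes handle very long and branched chains, and the Cyp4a enzymes of the endoplasmic reticulum oxidise the far end of the chain.

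The direct repeat recognised by the receptor pair can be shown in the promoters of some of these genes. Windows from 250 bases before to 50 bases after the start site were available in RefSeq (GRCm38.p6) for 32 of the 40 genes, the genes without one being Decr1, Acaa2, Hsd17b4, Cyp4a10, Cyp4a12a, Cyp4a14, Cyp4a31 and Vnn1. They were searched on both strands for 2 copies of AGGTCA separated by 1 base, allowing 2 mismatches over the 12 fixed bases. A match was present in 7 of the 32 genes (21.9%), and in 4.4% of the 27025 genes with such a window. The match is a description of letters and not a measured binding site. The first sequence is shown because Fabp1, the most abundant of the 40 transcripts per length, held the closest match, with 1 mismatch, from 67 to 55 bases before its start site. It lies at chr6:71199629-71199878 on the plus strand and gives the 250 bases before the start site, with the matched bases in capitals.
Fabp1, 250 bases: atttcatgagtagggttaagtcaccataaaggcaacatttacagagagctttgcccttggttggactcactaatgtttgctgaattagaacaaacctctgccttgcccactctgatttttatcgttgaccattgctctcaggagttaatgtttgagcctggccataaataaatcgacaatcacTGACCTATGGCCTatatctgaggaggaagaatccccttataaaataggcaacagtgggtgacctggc

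The other 6 genes held matches with 2 mismatches, each printed with 8 bases on either side, in the direction of the gene and with the matched bases in capitals. They are shown so that the repeat can be compared across members that moved differently with diet: Cd36 is among the strongest rises below, while Etfa and Echs1 are among the falls.
Creb3l3, chr10:81092780-81092808: ctgtaagtAGGGGAGAGGTCAcacagacc
Cd36, chr5:17835939-17835967: tggttctcTGGCCTCTGACTTacttggat
Slc25a20, chr9:108662134-108662162: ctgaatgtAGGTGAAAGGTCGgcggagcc
Echs1, chr7:140116484-140116512: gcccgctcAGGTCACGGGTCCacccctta
Etfa, chr9:55512300-55512328: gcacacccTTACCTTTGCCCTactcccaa
Acot4, chr12:84038358-84038386: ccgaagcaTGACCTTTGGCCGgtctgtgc
Creb3l3, Cd36, Echs1 and Etfa lie on the minus strand, and Slc25a20 and Acot4 on the plus strand. The match of Slc25a20 lies after the start site.

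Before the results, several libraries need naming. Total counts ranged from 2476268 to 12471844 in 43 libraries and reached 88204703 in WT CD-LFD replicate 3. Ripk3 stood at 0.511 to 4.89 CPM (CPM being counts scaled to a library size adjusted by TMM) in WT and MlklKO libraries and at 0 to 0.166 in the Ripk3KO libraries on the 2 deficient diets. Among the Ripk3KO controls, the library labelled replicate 5 held 1.26 CPM. Mlkl RNA was lowered but not absent in MlklKO, and the library labelled MlklKO CD-HFD replicate 1 held 12.5 CPM against 4.83 and 2.80 in the other two. The library labelled Ripk3KO CD-LFD replicate 3 held 10.9 CPM of Xist against at most 2.10 in the others, with the Y-linked Ddx3y at 29.5 to 123 CPM in all libraries. WT control replicates 5 and 6 held the 2 highest scores on the first component of the deviations from the group means (23.5% of that variance), and 24 of its 25 leading genes were predicted or unnamed genes against 10.8% of tested genes. The log2 ratio of the clock genes Arntl and Dbp split the libraries into 33 and 11 across a gap of 0.945. The 11 were all WT (4 of 6 on control, 6 of 6 on CD-LFD and 1 of 6 on CD-HFD), so clock phase and genotype cannot be told apart on CD-LFD. Counts of called genes are given with and without the named single libraries in the diet comparisons, and in the comparisons with WT where any were called. For the clock split they are given with phase as a covariate, in the diet comparisons of WT and in the comparisons with WT where any were called.

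The cell makeup of the samples also moved with diet. The summed level of 11 hepatocyte markers, among them Alb, Ttr and Cps1, ranged from 98970 to 167538 CPM in WT controls and from 66381 to 105594 in WT on CD-HFD, with no marker at 0 in any group. Over the same groups, 10 macrophage markers summed to 156 to 233 and 1078 to 2741 CPM, 10 stellate and fibroblast markers to 242 to 305 and 855 to 1624, and 6 cholangiocyte markers to 44.8 to 83.1 and 678 to 1127. In bulk tissue, fewer hepatocytes and less RNA per hepatocyte cannot be told apart.

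Levels on the control diet spanned several orders of magnitude. Per kilobase of exon, Fabp1, the cytosolic fatty acid binding protein of hepatocytes, stood at 8260 ± 3850 CPM per kb (mean ± SD, n = 6 WT controls). The thiolases Acaa1b and Acaa2, which cut acetyl-CoA from the chain in peroxisomes and mitochondria, followed at 868 ± 327 and 660 ± 216 CPM per kb, and their ranges overlap. Acot3 at 1.29 ± 1.57 and Cyp4a31 at 0.746 ± 0.381 CPM per kb were lowest.

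**Figure D1:**
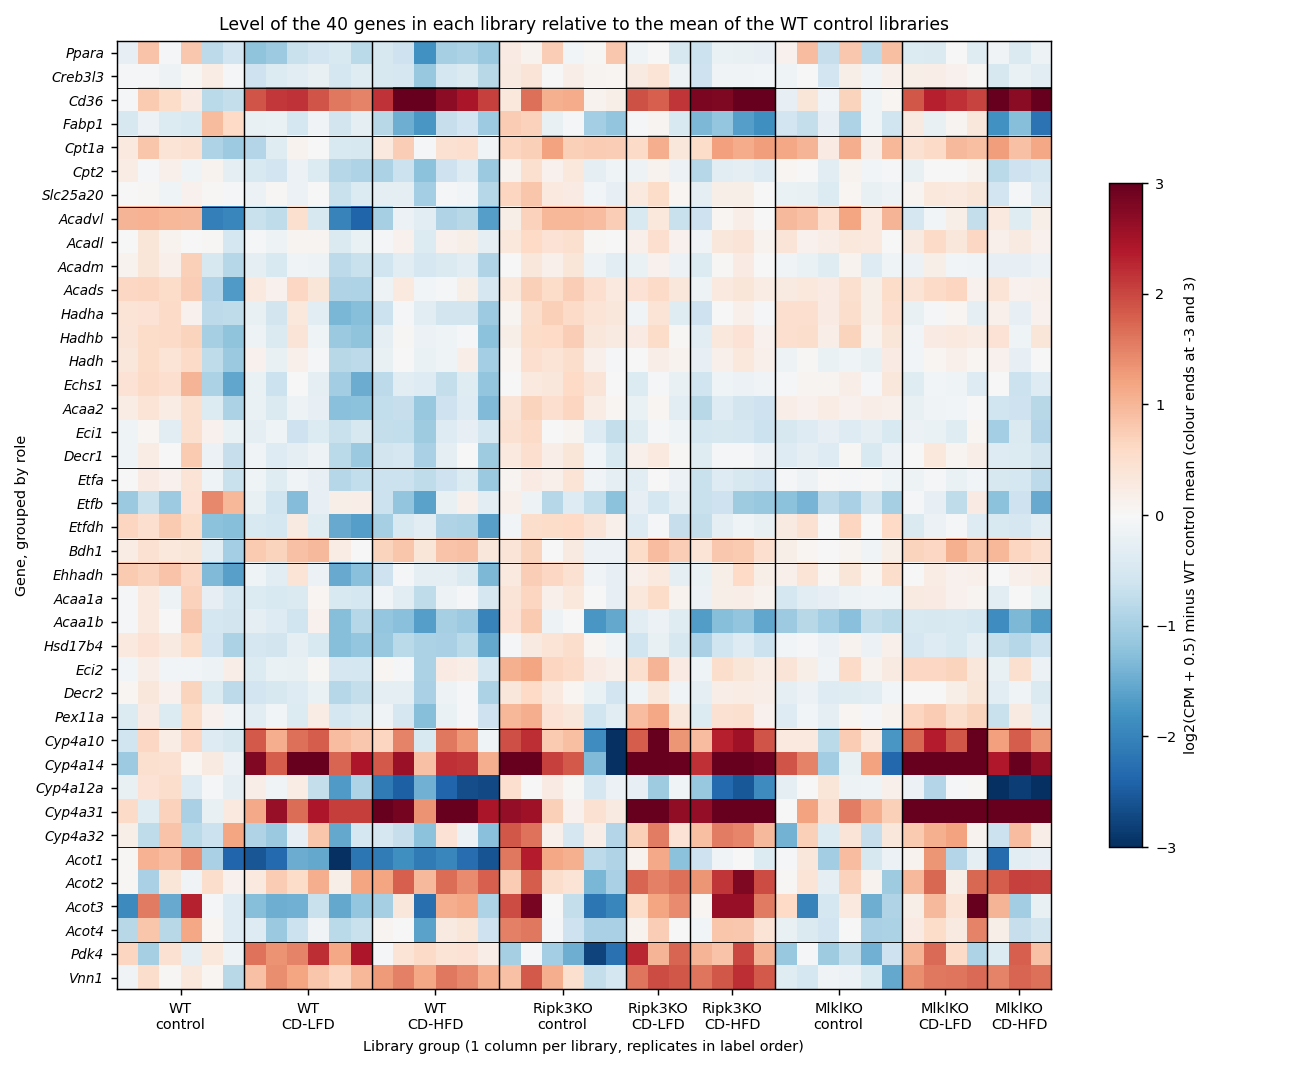
Each row is 1 of the 40 genes, grouped by role, and each column 1 of the 44 libraries, grouped by genotype and diet. Colour gives log2(CPM + 0.5) minus the mean of the 6 WT controls, bounded at 3 in either direction. Cd36, Cyp4a31 and Vnn1 are above the WT control mean in the deficient diet groups of all 3 genotypes, and most mitochondrial enzymes are below it in WT on both deficient diets.

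In WT livers CD-HFD lowered 21 of the 40 genes and raised 6. The falls covered the PPAR-alpha gene itself, the hepatocyte fatty acid binding protein, and enzymes at each step of mitochondrial oxidation, while the fatty acid translocase Cd36, 2 Cyp4a genes, the thioesterase Acot2, the pantetheinase Vnn1 and the ketone body enzyme Bdh1 rose. Among all 14862 genes tested, 24.1% were lower and 23.5% higher by the quasi-likelihood test of edgeR, with Benjamini-Hochberg adjusted p under 0.05 as the threshold for a call. The median log2 change was -0.56 over the 40 genes and -0.07 over all genes. CD-LFD lowered 16 and raised 7, against 14% and 13.7% of all genes, with medians of -0.46 and -0.03. The comparisons share the control libraries.

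Other settings move these counts. Scaling by library size alone shifted the median of all genes to 0.43 on CD-HFD and 0.27 on CD-LFD, and gave 9 raised and 6 lowered by CD-HFD, against 45.8% and 6.86% of all genes, and 8 raised and 3 lowered by CD-LFD, against 27.9% and 4.96%. Under that scaling Fabp1, Cpt2, Acaa1b, Hsd17b4, Cyp4a12a and Acot1 were the genes lower on CD-HFD. The other 15 genes lost their call, with estimates from -0.74 (Acadvl, adjusted p 0.085) to 0.10 (Slc25a20), among them Ppara at -0.57 and Acaa2 at -0.36. With clock phase as a covariate, CD-HFD gave 4 higher and 23 lower, and CD-LFD 7 higher and 3 lower. Within 1 phase CD-HFD gave 4 higher and 22 lower (3613 and 3139 of 14989 genes). CD-LFD gave 6 higher and 2 lower there (773 and 555 of 12745 genes). Without WT control replicates 5 and 6, the counts were 4 higher and 23 lower on CD-HFD and 5 higher and 23 lower on CD-LFD. WT CD-LFD replicates 5 and 6 held the highest scores of their group on the same first component (31.3 and 35.6). They were kept in that fit, so it left out such libraries on the control side only. Over all genes, the phase covariate left 3492 genes raised and 3040 lowered by CD-HFD and 1692 raised and 1673 lowered by CD-LFD. Leaving out the 2 controls left 4187 and 3974 for CD-HFD, with 3229 and 3152 for CD-LFD. Without the deep WT CD-LFD replicate 3, CD-LFD gave 6 higher and 16 lower, and without WT control replicate 2 or 4 or WT CD-LFD replicate 5 or 6 it gave 6 or 7 higher and 6 or 7 lower. The summed hepatocyte markers changed by -0.79 on CD-HFD and -0.48 on CD-LFD on the log2 scale, and 12 and 18 of the 40 genes lay below those values. Their part in the falls was not tested.

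Among the regulators, Ppara itself ranged from 48.8 to 152 CPM in WT controls (median 75.9), from 36.0 to 61.5 on CD-LFD (median 50.1) and from 23.6 to 60.3 on CD-HFD (median 42.5). The control values were mostly the higher ones, but the ranges overlap, and the 2 highest controls, replicates 2 and 4 at 152 and 147 CPM, are the 2 that fall on the majority side of the clock split. Ppara fell by 1.09 on the log2 scale on CD-HFD (SE 0.26, adjusted p 0.000685) and by 0.93 on CD-LFD (SE 0.26, adjusted p 0.00708). With clock phase as a covariate the values were -1.58 (adjusted p 1.35e-06) and -0.43 (adjusted p 0.183), and by library size alone the CD-HFD value was -0.57 (adjusted p 0.0616). Creb3l3, a membrane-bound factor of liver that works with PPAR-alpha in fasting, stood at 311 to 406 CPM in controls and at 158 to 257 on CD-HFD, without overlap, a change of -0.64 (SE 0.13, adjusted p 7.3e-05), or -0.15 (adjusted p 0.333) by library size alone.

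Uptake and binding moved in opposite directions. Cd36, which imports long-chain fatty acids, stood at 14.6 to 45.2 CPM in controls (median 27.9), at 73.6 to 119 on CD-LFD (median 97.6) and at 110 to 280 on CD-HFD (median 157). Neither deficient group overlapped the controls. On CD-HFD the log2 rise was 2.60 (SE 0.26, adjusted p 8.98e-11), and that of CD-LFD 1.76 (SE 0.26, adjusted p 1.75e-06). Cd36 is also made by macrophages, whose summed markers were higher in the same livers, and their part was not tested. Fabp1 stood at 3004 to 8076 CPM in controls (median 3450), 2881 to 3932 on CD-LFD (median 3532) and 1261 to 2810 on CD-HFD (median 2178). Every CD-HFD value was under every control, and the change was -1.12 (SE 0.27, adjusted p 0.000584), while CD-LFD gave -0.42 (adjusted p 0.241). Within 1 clock phase the CD-HFD fall lost its call (adjusted p 0.203).

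The carnitine shuttle did not move as a block. Cpt1a, the outer-membrane transferase that controls entry into mitochondria, stood at 113 to 429 CPM in WT controls and at 224 to 402 on CD-HFD, with a change of 0.17 (SE 0.23, adjusted p 0.562) that turned to -0.18 without WT control replicates 5 and 6 and to -0.13 with clock phase as a covariate. By library size alone it was 0.68 and called higher (adjusted p 0.00704). Cpt2, the inner-membrane transferase, stood at 120 to 171 CPM in controls and at 62.7 to 113 on CD-HFD, without overlap. It fell by 0.81 (SE 0.14, adjusted p 9.29e-06). Slc25a20, the carrier between the transferases, changed by -0.38 on CD-HFD (adjusted p 0.0433), which turned to 0.10 by library size alone and had an adjusted p of 0.0583 without WT control replicates 5 and 6, and gave -0.21 on CD-LFD (adjusted p 0.329).

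Of the 11 mitochondrial beta-oxidation genes, 7 fell on CD-HFD and 6 on CD-LFD and 0 rose. Of all genes, 24.1% and 14% were lower and 23.5% and 13.7% higher. By library size alone 0 fell and 1 rose on CD-HFD (6.86% and 45.8% of all genes), and 1 fell on CD-LFD (4.96%). With clock phase as a covariate 7 fell on CD-HFD and 0 on CD-LFD (3040 and 1673 of all genes). Without WT control replicates 5 and 6, but with WT CD-LFD replicates 5 and 6 kept, 10 fell on each diet (3974 and 3152 of all genes). The log2 changes of the 11 genes on CD-HFD ran from -1.25 to -0.06 with a median of -0.60. Acaa2, the mitochondrial thiolase, stood at 490 to 1318 CPM in controls and 376 to 730 on CD-HFD, a change of -0.86 (SE 0.19, adjusted p 0.000238), or -0.36 (adjusted p 0.0504) by library size alone. Acadvl, the very long chain acyl-CoA dehydrogenase that opens the cycle, changed by -1.25 (SE 0.39, adjusted p 0.00699), but its controls were split. Replicates 5 and 6 held 26.5 and 28.3 CPM and the other four 220 to 230, and WT CD-LFD replicates 5 and 6 were low as well, at 27.4 and 20.6 CPM. On CD-LFD the Acadvl call was lost in 4 of 12 fits that left out 1 library, with adjusted p up to 0.0604. There it was also lost with clock phase as a covariate (-1.06, adjusted p 0.0627). On CD-HFD the call was lost when scaled by library size alone (adjusted p 0.085). Acadl, the long chain dehydrogenase, gave -0.06 on CD-HFD (adjusted p 0.747), or 0.44 by library size alone (adjusted p 0.00123).

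The 3 genes that pass electrons from these dehydrogenases to the respiratory chain were all called lower on CD-HFD (24.1% of all genes). Without WT control replicates 5 and 6 it was 2 of the 3 (3974 of 14804 genes), and by library size alone 0 of the 3 (6.86%). Etfa, a subunit of the electron transfer flavoprotein, stood at 231 to 494 CPM in controls and 171 to 276 on CD-HFD, ranges that overlap, and changed by -0.73 (SE 0.14, adjusted p 5.11e-05). Etfdh, which receives the electrons at the membrane, changed by -1.05 (SE 0.27, adjusted p 0.00155). Etfb, the other subunit, changed by -0.86 (adjusted p 0.027), or -0.92 with clock phase as a covariate (adjusted p 0.0808). Its WT controls 5 and 6 held 204 and 150 CPM against 34.1 to 101 in the other four, and without them the change was -0.04 (adjusted p 0.914). Against that direction, Bdh1, which interconverts the ketone bodies acetoacetate and 3-hydroxybutyrate, rose by 0.59 (SE 0.18, adjusted p 0.00654), from a median of 231 CPM to 324, with ranges that overlap. The Bdh1 estimate without those controls was 0.33 (adjusted p 0.0852), and with clock phase as a covariate 0.37 (adjusted p 0.124).

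Of the 7 peroxisomal genes, 4 fell on CD-HFD and 3 on CD-LFD and 0 rose. Of all genes, 24.1% and 14% were lower and 23.5% and 13.7% higher. By library size alone 2 fell on CD-HFD and 1 on CD-LFD (6.86% and 4.96% of all genes). With clock phase as a covariate 6 fell on CD-HFD and 1 on CD-LFD (3040 and 1673 of 14862 genes). Hsd17b4, the bifunctional enzyme for branched and very long chains, stood at 230 to 650 CPM in controls (median 538), 184 to 368 on CD-LFD (median 308) and 153 to 255 on CD-HFD (median 228). It changed by -1.11 on CD-HFD (SE 0.18, adjusted p 3.12e-06). Acaa1b changed by -1.40 (SE 0.28, adjusted p 5.19e-05), from 1102 to 2827 CPM in controls to 404 to 805, without overlap. Its near-identical copy Acaa1a gave -0.35 (adjusted p 0.065), and how reads were split between the copies is not given in the sources used here. Pex11a, which drives peroxisome division, gave -0.44 on CD-HFD (adjusted p 0.104).

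The omega-hydroxylases split by gene. Cyp4a12a, a form more abundant in male than in female mouse liver, stood at 175 to 330 CPM in controls (median 209), 70.6 to 268 on CD-LFD (median 176) and 34.8 to 84.3 on CD-HFD (median 42.6). Only CD-HFD was clear of the controls, at -2.28 (SE 0.28, adjusted p 7.3e-09). Cyp4a14, which is strongly induced by PPAR-alpha agonists, went the other way, from 6.90 to 21.3 CPM in controls to 52.2 to 310 on CD-LFD and 28.0 to 93.6 on CD-HFD, neither overlapping the controls. The log2 rises were 2.95 (SE 0.77, adjusted p 0.00347) and 1.87 (SE 0.75, adjusted p 0.0358). The CD-HFD call was lost in 6 of 12 fits without 1 library, with adjusted p up to 0.078. It was also lost without WT control replicates 5 and 6 (adjusted p 0.0685) and with clock phase as a covariate (1.49, adjusted p 0.19). Cyp4a31, the least abundant of the family on the control diet, rose from 0.615 to 3.06 CPM in controls to 4.32 to 12.9 on CD-LFD and 5.13 to 27.3 on CD-HFD, by 2.07 (SE 0.52, adjusted p 0.00254) and 3.02 (SE 0.50, adjusted p 3.79e-06). Cyp4a10, Cyp4a31 and Cyp4a32 are close copies. How reads were assigned among them is not given in the sources used here, so the split among them is uncertain.

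The acyl-CoA thioesterases, which release free fatty acids from CoA in the cytosol (Acot1), mitochondria (Acot2) and peroxisomes (Acot3 and Acot4), also split. Acot1 stood at 2.44 to 39.0 CPM in controls (median 22.0), 0.618 to 4.99 on CD-LFD (median 2.73) and 2.06 to 3.77 on CD-HFD (median 3.09). All but the lowest control, replicate 6, lay above every value of either deficient diet. The change was -2.71 on CD-LFD (SE 0.54, adjusted p 0.000208), with -2.79 for CD-HFD (SE 0.54, adjusted p 4.49e-05). Acot2, its neighbour in sequence, rose on CD-HFD by 1.57 (SE 0.37, adjusted p 0.000605), from 1.47 to 5.02 CPM to 6.98 to 12.8. Acot3 stood at 0.276 to 13.8 CPM in controls, with replicates 2 and 4 at 8.06 and 13.8, and at 0.495 to 1.34 on CD-LFD. Its call on CD-LFD (-2.56, adjusted p 0.0376) was lost in 7 of 12 fits without 1 library, and with clock phase as a covariate the value was -0.32. The Acot genes are also similar in sequence, which leaves low values of single members uncertain.

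Pdk4, the kinase that shuts pyruvate out of the mitochondrion, and Vnn1, which releases cysteamine, are standard PPAR-alpha targets. Pdk4 stood at 4.15 to 13.9 CPM in WT controls, 20.2 to 48.6 on CD-LFD and 8.53 to 13.2 on CD-HFD. It rose on CD-LFD alone, by 1.72 (SE 0.37, adjusted p 0.00059), and the direct comparison of CD-HFD with CD-LFD gave -1.47 (SE 0.35, adjusted p 0.00179), or -0.90 with clock phase as a covariate (adjusted p 0.297). Vnn1 stood at 13.4 to 35.2 CPM in controls, 38.1 to 64.5 on CD-LFD and 52.2 to 73.3 on CD-HFD, above the controls in every library of both diets, and rose by 0.97 and 1.32 (adjusted p 0.00446 and 5.4e-05).

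**Figure D2:**
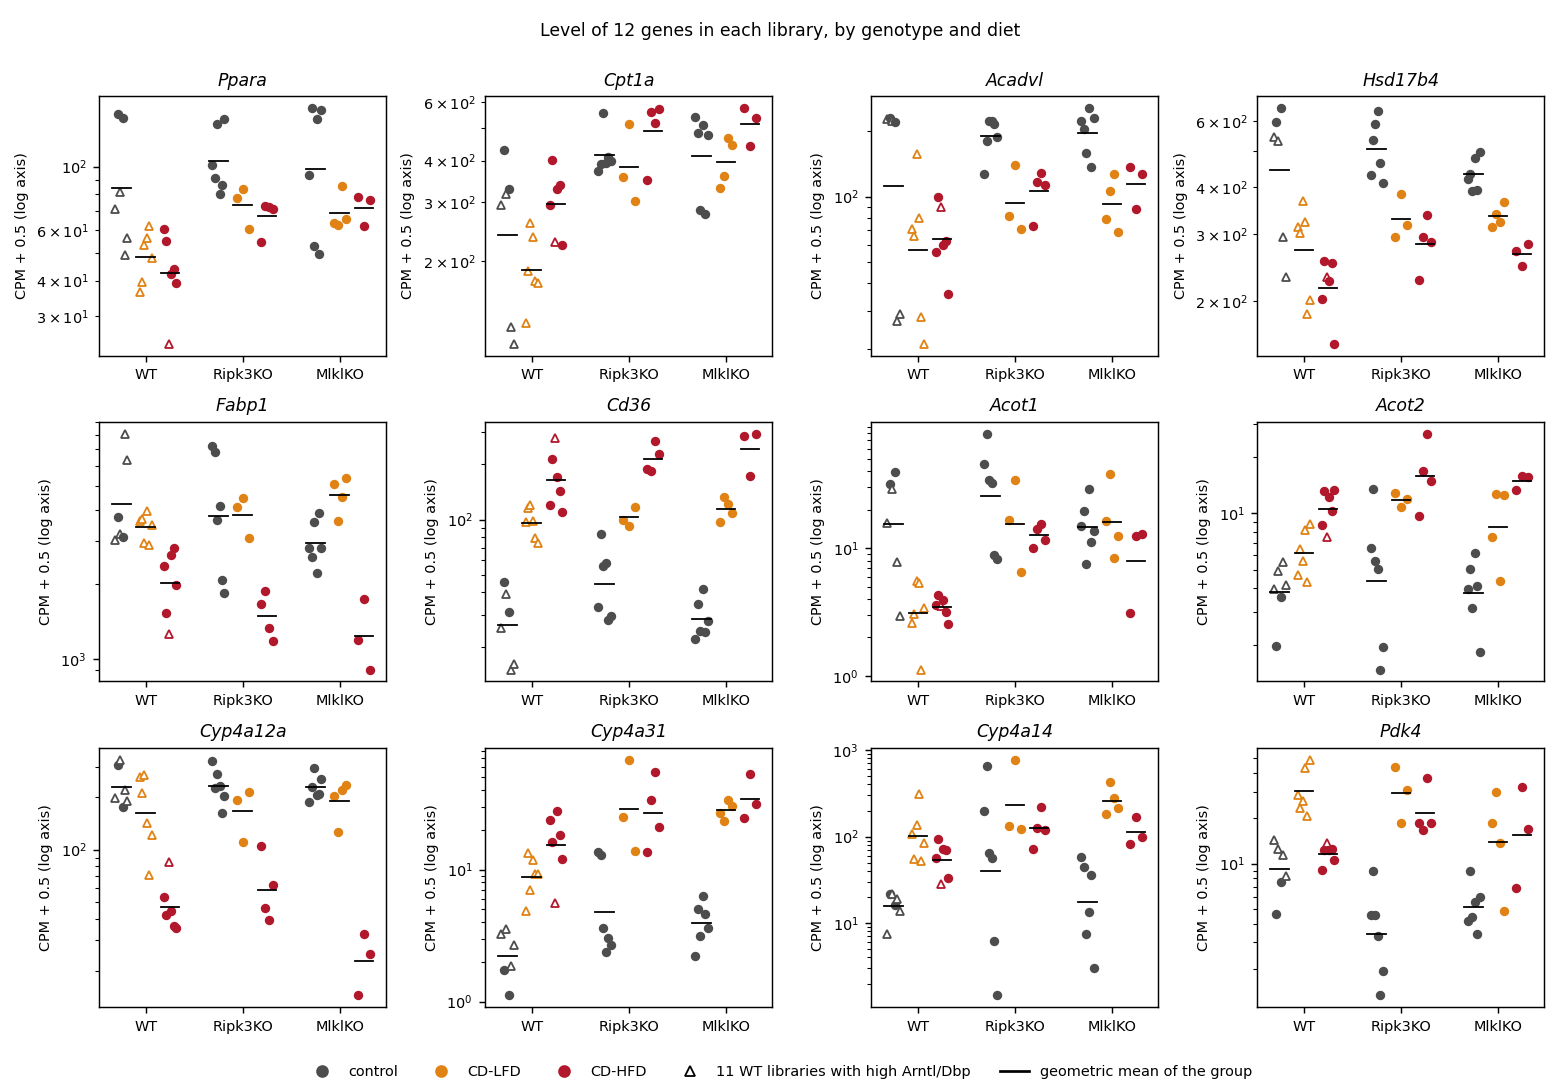
CPM of 12 of the genes in every library on a log axis, by genotype and diet, with bars at the geometric mean and triangles for the 11 WT libraries with a high ratio of Arntl to Dbp. Cd36 is above the controls on both deficient diets in all 3 genotypes, and Cyp4a12a falls on CD-HFD.

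Between the deficient diets, CD-HFD lowered Cyp4a12a, Acaa1b and Pdk4 and raised Cd36 and Cpt1a in WT (13.7% of all genes higher and 7.4% lower). By library size alone, which moved the all-gene median to 0.18, 4 were higher and 2 lower (20.6% and 3.36% of all genes). Without WT CD-LFD replicate 3 the counts were 2 higher and 3 lower. With clock phase as a covariate 0 were higher and 6 lower (1644 and 601 of all genes). The Cpt1a rise of 0.65 (adjusted p 0.0375) was lost in 8 of 12 fits without 1 library and fell to 0.07 with clock phase as a covariate, under which the Cd36 change was 0.86 (adjusted p 0.055). In Ripk3KO, Fabp1, Acaa1b and Cyp4a12a fell and Cd36 rose (3.08% of all genes lower and 5.75% higher), and the Acaa1b call was lost in all 7 fits without 1 library. Without Ripk3KO CD-LFD replicate 3, 1 was higher and 2 lower, without Ripk3KO CD-LFD replicate 2, 1 was called, and without CD-LFD replicate 1 or CD-HFD replicate 3 or 5, 2 were. In MlklKO, 8 genes fell and Cd36 rose (9.14% lower and 14.6% higher), with Fabp1 changing by -1.85 (SE 0.37, adjusted p 0.000286) and Cyp4a12a by -3.06 (SE 0.40, adjusted p 5.42e-07). Without the doubtful MlklKO CD-HFD replicate 1, 2 genes were lower in MlklKO, without replicate 4 of that group 3 were lower, and without MlklKO CD-LFD replicate 2 or 4, 4 were. By library size alone 2 were lower and 3 higher (2.6% and 32.1% of all genes), with the all-gene median at 0.41. Only Cd36, Acaa1b and Cyp4a12a were called in this comparison in all 3 genotypes, where 4.99% of all genes were higher and 1.77% lower in all 3.

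In the knockouts the same deficient diets were set against the knockout's own controls. In Ripk3KO, CD-LFD raised 5 and lowered 1 of the 40 genes (14% of all genes higher and 10.1% lower), and CD-HFD raised 5 and lowered 10 (24.6% and 21.7%). In MlklKO, CD-LFD raised 13 and lowered 1 (19.7% and 18.3%), and CD-HFD raised 8 and lowered 6 (24.9% and 20.3%). Medians over the 40 genes were -0.09, -0.30, 0.29 and -0.12 in that order, against 0.01, -0.05, 0.06 and -0.04 over all genes. Scaling by library size alone, with all-gene medians of 0.32, 0.49, 0.20 and 0.49, moved the splits to 8 higher and 0 lower, 12 and 4, 20 and 0, and 14 and 1. The matching shares of all genes were 26.3% and 3.45%, 46.2% and 4.96%, 25.1% and 12.9%, and 42.8% and 4.89%. Without the doubtful Ripk3KO control replicate 5 the Ripk3KO counts were 4 higher and 1 lower on CD-LFD, with 5 higher and 12 lower on CD-HFD. Without Ripk3KO CD-LFD replicate 3, CD-LFD gave 4 higher and 0 lower, and without MlklKO CD-HFD replicate 1 the MlklKO counts on CD-HFD were 6 and 6. MlklKO on CD-LFD gave 9 higher and 0 lower without its replicate 4. With a block for replicate number, MlklKO gave 11 higher and 5 lower on CD-LFD (3277 and 3119 of all genes), and 6 and 10 on CD-HFD (3782 and 3276). Within 1 clock phase it gave 15 and 5 (3356 and 3313), and 7 and 10 (3918 and 3900). With the compared groups only it gave 19 and 5 (2544 and 2664), and 8 and 9 (3200 and 2219). The deficient groups of the knockouts hold 3 or 4 libraries against 6 in WT, and the counts are not compared between genotypes.

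Across genotypes, Cd36, Cyp4a31, Pdk4 and Vnn1 rose on CD-LFD in all 3, and Acot2, Cd36, Cyp4a31 and Vnn1 rose on CD-HFD in all 3. Acaa2, Cpt2, Cyp4a12a, Etfa, Fabp1 and Hsd17b4 fell on CD-HFD in all 3, whereas 0 genes fell on CD-LFD in all 3. The shares of all genes that moved one way in the 3 genotypes were 6.84% higher and 3.8% lower for CD-LFD, with 17.9% and 10.6% for CD-HFD. By library size alone the CD-HFD fall of Cyp4a12a kept its call in all 3 genotypes, and those of the other 5 lost it in at least 1. By sign alone, 26 of the 40 estimates were below 0 in all 3 genotypes on CD-HFD and 12 on CD-LFD, against 38.5% and 30.1% of all genes. Summed hepatocyte markers changed by -0.75 (Ripk3KO) and -0.71 (MlklKO) on CD-HFD and by -0.43 and -0.07 on CD-LFD.

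Ppara in Ripk3KO stood at 79.9 to 147 CPM on control (median 95.6), at 77.3, 83.1 and 60.1 on CD-LFD and at 53.9, 72.6, 72.0 and 70.5 on CD-HFD. Every CD-HFD value lay below the controls, yet the change of -0.67 (SE 0.29, adjusted p 0.0576) did not pass. In MlklKO it stood at 48.9 to 159 CPM on control (median 120), at 62.8, 62.1, 85.3 and 65.4 on CD-LFD and at 77.7, 61.7 and 76.1 on CD-HFD, inside the control range, with -0.67 (adjusted p 0.0679) and -0.61 (adjusted p 0.124). Cpt1a in the knockouts gave -0.10 on CD-LFD in each (adjusted p 0.825 in Ripk3KO and 0.787 in MlklKO) and 0.25 and 0.27 on CD-HFD (adjusted p 0.431 and 0.448). By library size alone the CD-LFD value turns above 0, at 0.19 in Ripk3KO and 0.05 in MlklKO, and the CD-HFD rise was called in each, at 0.78 (adjusted p 0.00497) and 0.80 (adjusted p 0.00822).

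Fabp1 in the Ripk3KO livers on CD-HFD stood at 1668, 1884, 1338 and 1186 CPM against 1847 to 7205 in the Ripk3KO controls (median 3868). Replicate 2, at 1884 CPM, lay just inside the control range, and the change was -1.49 (SE 0.31, adjusted p 0.000121). The MlklKO values on CD-HFD were 1195, 1747 and 906 CPM against 2225 to 3876 (median 2805), all below the controls, a change of -1.21 (SE 0.34, adjusted p 0.00346), or -0.69 (adjusted p 0.0853) by library size alone.

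Cyp4a12a stood at 104, 45.5, 38.8 and 61.8 CPM in Ripk3KO on CD-HFD against 162 to 325 in its controls. In MlklKO it stood at 13.9, 32.0 and 24.5 CPM against 189 to 294. Both groups lay clear of their controls, at -1.93 (SE 0.32, adjusted p 3.45e-06) and -3.29 (SE 0.39, adjusted p 4.48e-09). Cd36 stood at 188, 185, 270 and 228 CPM in Ripk3KO and at 284, 173 and 294 in MlklKO on CD-HFD, against 27.8 to 82.7 and 21.8 to 41.4 in their controls, and rose by 2.20 and 3.12 (adjusted p 1.24e-08 and 1.38e-11).

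On CD-LFD, Cd36 stood at 99.1, 91.9 and 117 CPM in Ripk3KO and at 95.9, 132, 121 and 108 in MlklKO, again above every control of its genotype, with rises of 1.11 (SE 0.29, adjusted p 0.00477) and 1.99 (SE 0.27, adjusted p 6.08e-07). Cyp4a31 stood at 24.4, 67.9 and 13.4 CPM in Ripk3KO and at 26.3, 22.8, 33.0 and 29.6 in MlklKO on CD-LFD, against 1.89 to 13.2 and 1.72 to 5.83 on control. All of these libraries lay above their controls, by 2.59 (SE 0.49, adjusted p 0.000133) and 2.91 (SE 0.47, adjusted p 9.67e-06). On CD-HFD its rises were 2.41 and 3.28 (adjusted p 3.16e-05 and 6.98e-07).

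The thioesterases of Ripk3KO again split. Acot2 rose by 1.15 on CD-LFD (SE 0.41, adjusted p 0.0367), a call lost in 6 of 9 fits without 1 library, and by 1.70 on CD-HFD (SE 0.37, adjusted p 0.000237). Acot1 stood at 9.49, 13.7, 14.9 and 11.1 CPM on CD-HFD against 7.70 to 78.3 on control, and its change of -1.47 (SE 0.55, adjusted p 0.027) was lost in 3 of 10 fits without 1 library and by library size alone (adjusted p 0.139). Hsd17b4 was the only gene to fall on CD-LFD in Ripk3KO, at 294, 383 and 318 CPM against 411 to 637, a change of -0.62 (SE 0.23, adjusted p 0.0417) that was lost in 5 of 9 fits without 1 library. In MlklKO on CD-HFD, Acaa2 stood at 621, 611 and 531 CPM against 1027 to 1105 and changed by -0.86 (SE 0.24, adjusted p 0.00324), or -0.33 (adjusted p 0.163) by library size alone.

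Pdk4 in Ripk3KO stood at 0.838 to 8.38 CPM on control, at 43.3, 18.1 and 30.2 on CD-LFD and at 18.1, 16.2, 36.6 and 18.2 on CD-HFD. Both deficient groups lay above every control, with rises of 3.11 (SE 0.45, adjusted p 2.33e-06) and 2.66 (SE 0.43, adjusted p 2.3e-06). In MlklKO it ranged more widely, with 18.2, 29.4, 13.3 and 4.32 CPM on CD-LFD against 2.90 to 8.47 on control, and 6.44, 31.6 and 16.5 on CD-HFD. The rises were 1.75 (adjusted p 0.00121) and 1.92 (adjusted p 0.000458), though 1 library of each group sat within the control range.

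In MlklKO livers on CD-LFD, 3 of the 4 thioesterases and 2 of the 7 peroxisomal genes rose, against 19.7% of all genes. Acot4 stood at 55.6, 68.6, 56.5 and 131 CPM against 23.6 to 46.5 in MlklKO controls and rose by 1.23 (SE 0.41, adjusted p 0.0179). Acot3 stood at 2.80, 5.22, 3.37 and 23.4 CPM against 0.217 to 3.88, and its rise of 2.34 (adjusted p 0.0299) was lost in 4 of 10 fits without 1 library, with an adjusted p of 0.353 without the replicate at 23.4. Pex11a rose by 0.75 (adjusted p 0.0167), and Cyp4a10 and Cyp4a14 by 2.29 and 3.40 (adjusted p 0.0015 and 0.00103). Acadvl was the only fall, at -1.08 (adjusted p 0.0484), lost in 7 of 10 fits without 1 library.

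**Figure D3:**
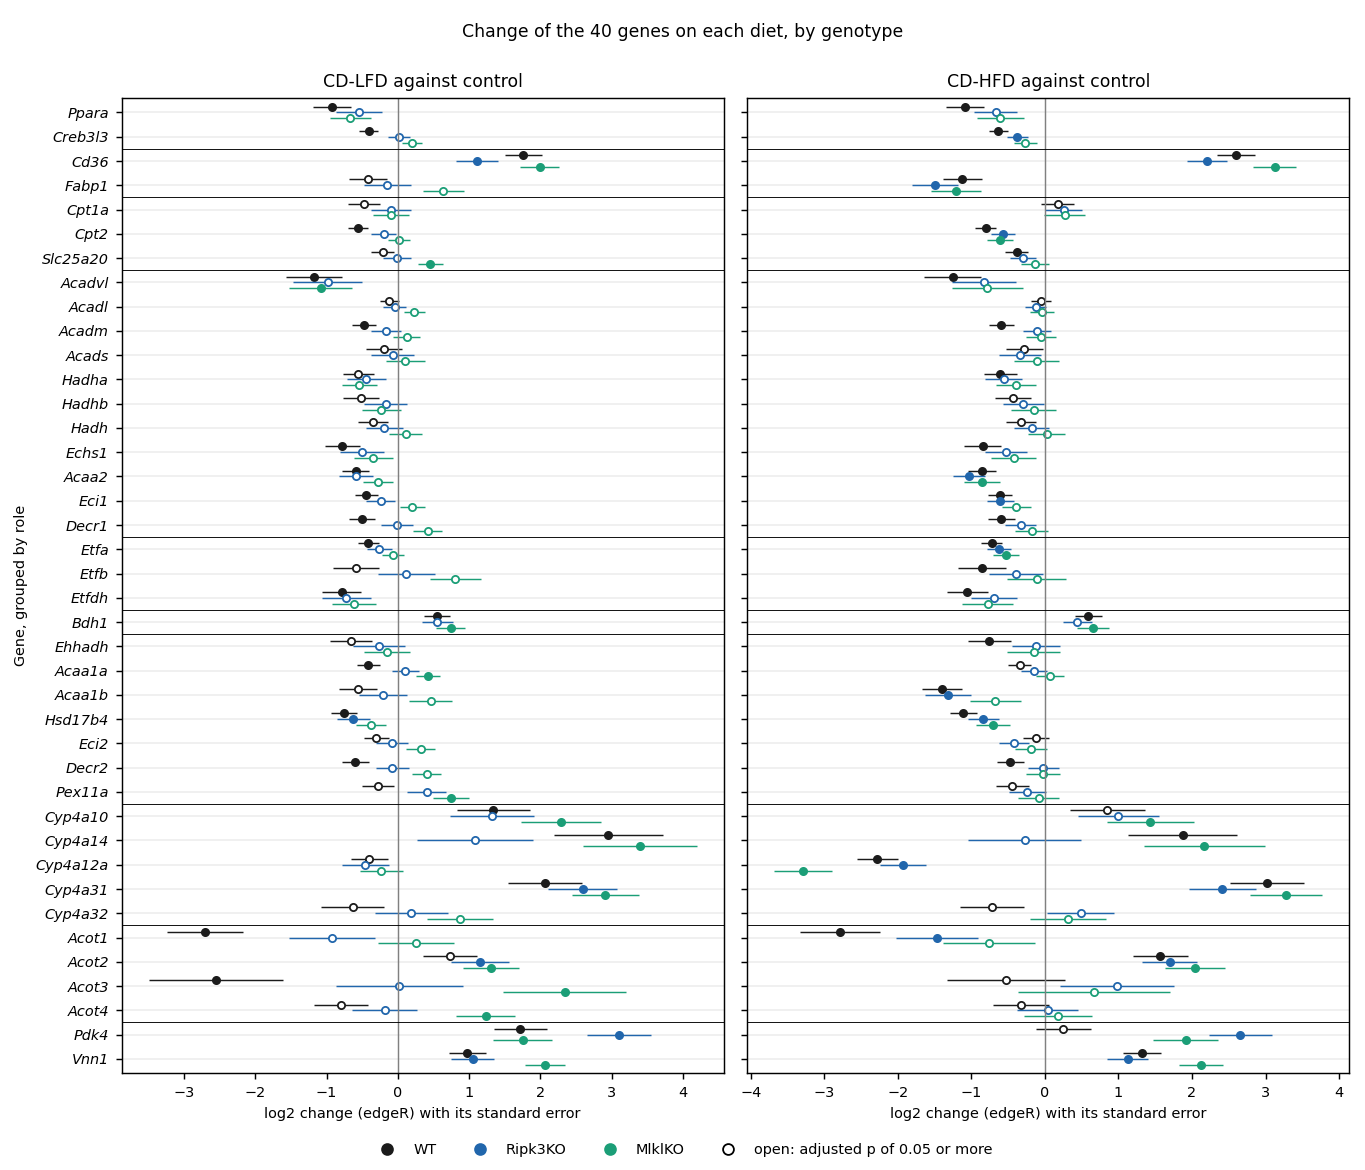
Log2 change and SE of each of the 40 genes on CD-LFD and on CD-HFD against control, for WT, Ripk3KO and MlklKO, with open symbols where the adjusted p was 0.05 or more. The CD-HFD changes of Cd36, Cyp4a31 and Vnn1 lie above 0 and those of Fabp1, Cyp4a12a and Hsd17b4 below 0 in all 3 genotypes.

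Against WT on the same diet, each knockout was higher for some of the 40 genes on CD-LFD. Ripk3KO was higher for 7 of the 40 and lower for 0 (0.794% and 0.31% of all genes), and MlklKO for 8 and 0 (1.64% and 0.929%). The comparisons share the 6 WT libraries. The Ripk3KO calls were Acaa1a, Acot1, Cpt1a, Creb3l3, Cyp4a31, Eci2 and Pex11a, and the MlklKO calls were Acadl, Acot1, Acot3, Cpt1a, Creb3l3, Cyp4a31, Eci2 and Pex11a. The medians over the 40 genes were 0.47 and 0.49, against 0.01 and 0.00 over all genes, and the hepatocyte markers differed by 0.19 and 0.54. Scaling by library size alone moved the all-gene medians to -0.11 and -0.23 and gave 2 and 5 genes, all higher (0.464% and 0.996% of all genes).

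All 6 WT libraries on CD-LFD lie on the minority side of the clock split and all knockout libraries on the other. With clock phase as a covariate 0 of the 40 genes were called in either knockout, when of all 14862 genes Ripk3KO had 3 higher and 4 lower and MlklKO had 1 higher, and no comparison within 1 phase could be made. Under it Acot1 gave 1.59 and 1.62, Cyp4a31 1.41 and 1.09, Eci2 0.50 and 0.46 and Creb3l3 0.38 and 0.33 in Ripk3KO and MlklKO. The Ripk3KO count of 7 became 0, 1 and 5 genes without Ripk3KO CD-LFD replicates 2, 1 and 3. Leaving out 1 WT CD-LFD library gave 0 without replicate 1, 1 without replicate 6, 2 without replicate 5 and 4 without replicate 2 or 3. The MlklKO count of 8 became 3 without MlklKO CD-LFD replicate 4, 4 without replicate 2 or 3 and 5 without replicate 1, with 4, 5 and 7 without WT CD-LFD replicates 5, 1 and 3. Without Ripk3KO CD-LFD replicate 2 the Acot1 difference had an adjusted p of 0.419. Acot1 in Ripk3KO stood at 16.0, 33.5 and 6.04 CPM and in MlklKO at 15.9, 37.9, 7.86 and 12.1, against 0.618 to 4.99 in WT, with differences of 2.50 (SE 0.61, adjusted p 0.0266) and 2.53 (SE 0.57, adjusted p 0.00732). Cpt1a stood at 357, 514 and 303 CPM in Ripk3KO and 331, 359, 467 and 445 in MlklKO, against 130 to 260 in WT, with differences of 1.02 (adjusted p 0.049) and 1.05 (adjusted p 0.0138), and 0.33 and 0.37 with clock phase as a covariate. Pex11a stood at 208, 243 and 138 CPM in Ripk3KO and at 169, 185, 156 and 172 in MlklKO, against 74.8 to 127 in WT. Cyp4a31 differed from WT, where it stood at 4.32 to 12.9 CPM, by 2.01 (SE 0.47, adjusted p 0.0187) and 1.69 (SE 0.44, adjusted p 0.0235). Acot3 differed in MlklKO by 3.60 (SE 0.92, adjusted p 0.022), which became -0.10 with clock phase as a covariate. Ppara gave 0.59 and 0.50 (adjusted p 0.485 and 0.415) and Cd36 0.08 and 0.24 (adjusted p 0.95 and 0.748).

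**Figure D4:**
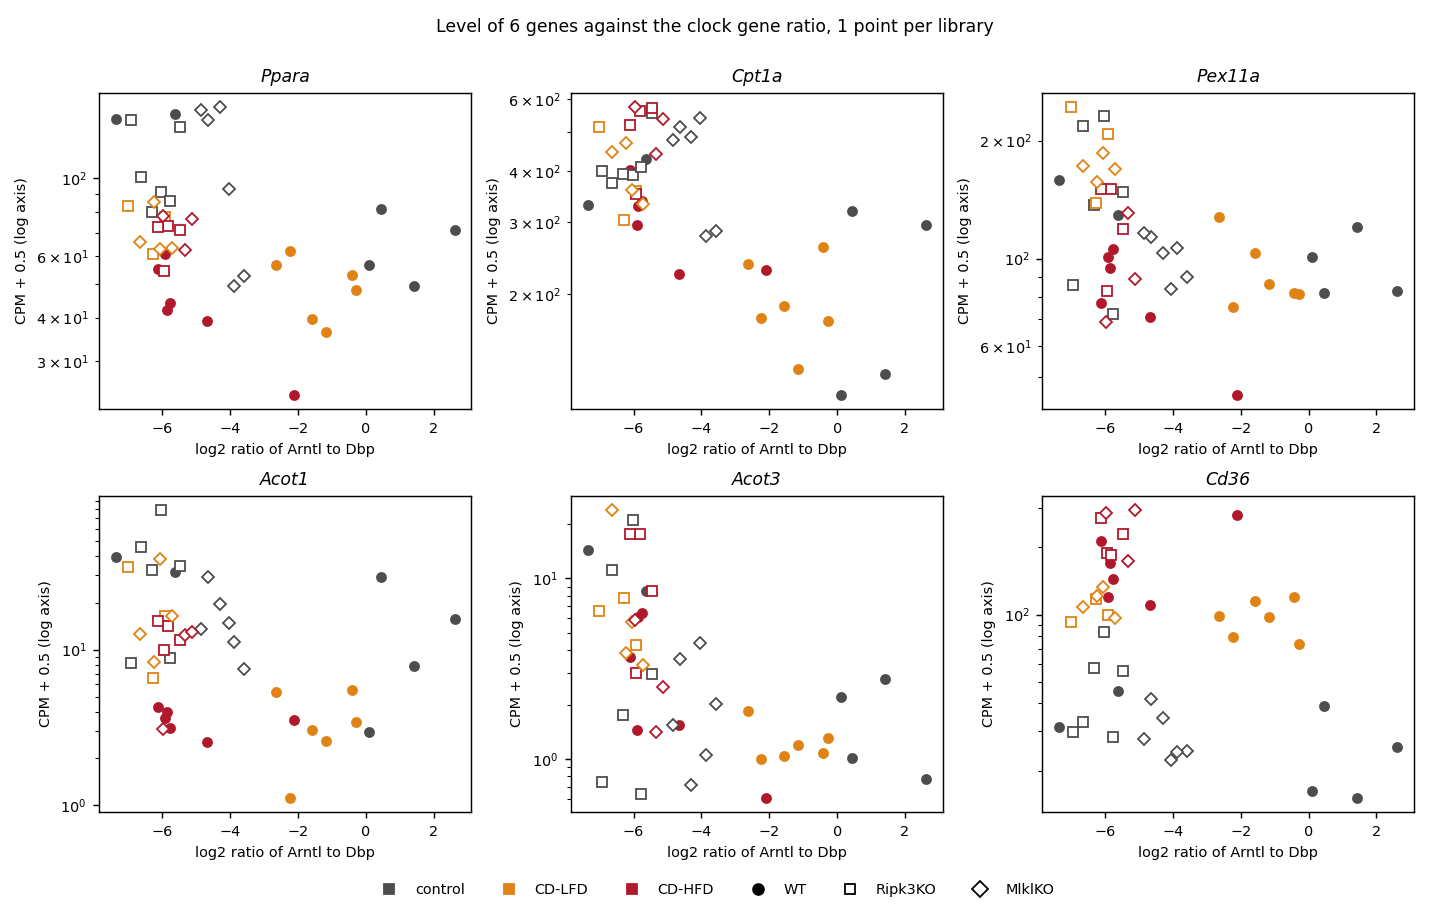
CPM of 6 of the genes in every library on a log axis against the log2 ratio of Arntl to Dbp, by genotype and diet. The 11 WT libraries of the minority phase sit to the right of the gap, and all CD-LFD libraries of WT are among them.

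On the other diets few differences from WT were called. On control, Ripk3KO was higher for Eci2 and Cyp4a14 and lower for Pdk4 (2.25% and 2.23% of all genes), and 0 of these calls held with clock phase as a covariate (90 of all genes higher and 33 lower). Without WT control replicates 5 and 6, 1 gene was higher (219 and 133 of all genes), and without the doubtful Ripk3KO control library 3 were higher and 0 lower. Leaving out Ripk3KO control replicate 2 gave 1 lower, and WT control replicate 2 gave 4 higher and 1 lower. Cyp4a14 in those libraries ran from 0.963 to 650 CPM against 6.90 to 21.3 in WT, so its rise of 3.35 (SE 0.78, adjusted p 0.00736) rests on 4 of 6 libraries. MlklKO on control was higher for Cpt1a and lower for Etfb and Acaa1b (13% and 14.1% of all genes), and clock phase as a covariate gave 0 higher and 9 lower (1448 and 1080 of all genes), with Acaa1b at -1.41. Without WT control replicates 5 and 6, 7 were lower and 0 higher (1331 and 1478 of all genes), and the Etfb difference of -1.30 (adjusted p 0.00318) became -0.48, those replicates holding 204 and 150 CPM of Etfb against 34.1 to 101 in the other four.

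On CD-HFD edgeR called 0 of the 40 genes in Ripk3KO against WT (0.377% of all genes), with 16 of 40 at an unadjusted p under 0.05 (8.73% of all genes), all of them estimates above 0. DESeq2 called 1. The median was 0.41. MlklKO against WT on CD-HFD gave 0 called genes (0% of all genes), with 6 of 40 at an unadjusted p under 0.05 (8.38%), and 0 by DESeq2. Cpt1a gave the estimates 0.73 and 0.77 (adjusted p 0.258 in Ripk3KO), and Cyp4a12a gave -1.05 in MlklKO, none of them called.

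The difference in diet response was tested as an interaction. For Ripk3KO and CD-LFD, 0 of the 40 genes were called (0.0269% of all genes), with 4 at an unadjusted p under 0.05 (8.28%) and 0 by DESeq2. For Ripk3KO and CD-HFD, Pdk4 alone was called (0.135% of all genes higher and 0.343% lower). Its CD-HFD response was larger than in WT by 2.41 (SE 0.57, adjusted p 0.0358), which was lost in 13 of 22 fits without 1 library, the doubtful Ripk3KO control replicate 5 among them, and with clock phase as a covariate (2.01, adjusted p 0.199). For MlklKO and CD-HFD, 0 were called (4.12%), with 4 at an unadjusted p under 0.05 (18.7%) and 0 by DESeq2, and 2 were called higher without WT control replicates 5 and 6 (404 of all genes higher and 589 lower).

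For MlklKO and CD-LFD, 8 genes responded more positively than in WT and 0 less (4.37% of all genes higher and 4.08% lower). They were the thioesterases Acot1 (2.96, adjusted p 0.0104), Acot3 (4.90, adjusted p 0.0128) and Acot4 (2.03, adjusted p 0.0191), the dienoyl-CoA reductases Decr1 (0.93, adjusted p 0.0281) and Decr2 (1.0, adjusted p 0.0191), the thiolase Acaa1a (0.84, adjusted p 0.0193), Pex11a (1.02, adjusted p 0.0489) and Creb3l3 (0.61, adjusted p 0.0393). DESeq2 called 12 (860 of all genes higher and 831 lower), and edgeR 12 without WT control replicates 5 and 6 (784 and 794). Leaving out WT control replicate 4, MlklKO control replicate 1 or MlklKO CD-LFD replicate 4 gave 5, and MlklKO CD-LFD replicate 2 gave 4. With clock phase as a covariate, Acot1 alone was called, at 2.55 (SE 0.77, adjusted p 0.0391), beside 441 higher and 460 lower of all genes. The others gave 0.54 (Creb3l3), 0.73 (Decr2), 0.66 (Decr1), 0.57 (Acaa1a), 0.75 (Pex11a), 1.32 (Acot4) and 2.67 (Acot3), with adjusted p of 0.0758 to 0.266. Each of Acot1, Acot3 and Acot4 lost its call when 1 MlklKO CD-LFD library was left out, with adjusted p of 0.0554, 0.0719 and 0.0703.

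Around these genes, 88 further genes of the pathway were listed and 86 were tested. In WT on CD-HFD, 46 were lower and 8 higher (24.1% and 23.5% of all genes), with a median of -0.54, and on CD-LFD 31 and 6 (14% and 13.7%). In Ripk3KO 36 were lower and 9 higher on CD-HFD (21.7% and 24.6%), and in MlklKO 29 and 8 (20.3% and 24.9%). On CD-LFD it was 14 lower and 7 higher in Ripk3KO (10.1% and 14%) and 16 and 13 in MlklKO (18.3% and 19.7%), with medians of -0.20 and -0.08. By list, in WT on CD-HFD, 13 of 18 further peroxisomal genes were lower and 0 higher, 11 of 18 genes of acyl-CoA activation and entry were lower and 1 higher, 9 of 15 further mitochondrial and ketogenic enzymes were lower and 2 higher, 5 of 15 receptor partners and coregulators were lower and 0 higher, and 8 of 20 tested further PPAR-alpha targets were lower and 5 higher.

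Among the named genes of those lists, Rxra, a DNA-binding partner of PPAR-alpha, changed by -0.69 in WT on CD-HFD (SE 0.20, adjusted p 0.00377), a call lost by library size alone (adjusted p 0.382). Angptl4, a secreted inhibitor of lipoprotein lipase, gave 0.37 (adjusted p 0.265), and was called higher by library size alone (0.86, adjusted p 0.00757) and within 1 clock phase (1.11, adjusted p 0.0126). Hacl1, a lyase of peroxisomal alpha-oxidation, and Abcd3, a peroxisomal acyl-CoA transporter, changed by -2.15 and -1.62, and Acacb, which makes the malonyl-CoA that restrains Cpt1a, by -3.08. Ucp2, a mitochondrial carrier, rose by 2.96 (SE 0.19, adjusted p 5.5e-16), and Oxct1, the enzyme of ketone body use in tissues outside the liver, by 2.46 (SE 0.25, adjusted p 7.55e-11). Macrophage, stellate and cholangiocyte markers were higher in the same livers, and the part of cell makeup in these rises was not tested. Slc27a1, a fatty acid transporter of muscle and fat, rose by 2.07 while Slc27a5, the hepatocyte transporter and bile acid ligase, changed by -1.82. Acad12 rose by 0.79, and the dehydrogenases of branched chain amino acid breakdown Acadsb and Acad8 changed by -1.34 and -1.19. G0s2, an inhibitor of lipolysis, and Gpam, the first enzyme of glycerolipid synthesis, changed by -1.91 and -1.70, and Sirt3, the mitochondrial deacetylase, by -0.60, lost by library size alone (adjusted p 0.6). Ppargc1a, a coactivator of PPAR-alpha, gave 0.59 (adjusted p 0.106), and was called higher by library size alone (1.07, adjusted p 0.00267).

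Fgf21, a liver hormone of fasting and of PPAR-alpha activation, stood at 0 to 2.69 CPM in WT controls, 59.1 to 203 on CD-LFD and 15.6 to 78.7 on CD-HFD. Both deficient groups lay far above the controls, with rises of 6.20 (SE 0.51, adjusted p 3.28e-12) and 5.27 (SE 0.51, adjusted p 3.43e-11). The knockout levels were lower on CD-LFD, at 9.70 to 12.9 CPM in Ripk3KO and 11.3 to 15.9 in MlklKO, below every WT library on that diet, with differences from WT of -3.01 (adjusted p 0.000732) and -2.86 (adjusted p 0.000119). A clock phase covariate gave -2.44 (adjusted p 0.52) and -2.29 (adjusted p 0.555), and phase and genotype cannot be told apart here. On CD-HFD, where 5 of 6 WT libraries share the phase of the knockouts, Fgf21 stood at 7.42 to 11.8 CPM in Ripk3KO and 5.06 to 14.9 in MlklKO, again below every WT library. The Ripk3KO difference there was -2.36 (SE 0.44, adjusted p 0.0058), or -2.23 with phase as a covariate (adjusted p 0.0123) and -2.21 within 1 phase (adjusted p 0.0109), with an adjusted p of 0.0516 without Ripk3KO CD-HFD replicate 5. MlklKO gave -2.16 (adjusted p 0.294), or -2.03 with the covariate (adjusted p 0.234), and was not called.

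Within groups the genes differed in how tightly they were held. The SD of log2(CPM + 0.5) around the group means had a median of 0.48 over the 40 genes, was under 0.5 for 26 of them and at least 0.8 for 4. Those 4 were Cyp4a14 at 1.53, Acot3 at 1.33, Cyp4a10 at 1.11 and Acot1 at 0.98, all of the omega-hydroxylase and thioesterase groups. Creb3l3 at 0.21, Acadl at 0.22, Cpt2 and Etfa were the tightest.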

How the data were processed

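RNA sequencing of liver gave 44 libraries (NEBNext Ultra II Directional kit, per the labels). The authors deposited raw counts per Ensembl gene, not normalised. The submitters' processing notes name FastQC, STAR, HTSeq, edgeR and limma and the builds GRCm39 and mm39, without versions or settings, and how reads of similar genes were assigned is not given in the sources used here. Symbols were found for 34373 identifiers, and 876 (0.0838% of counts) stayed unmatched.

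The filter filterByExpr (minimum count 10) kept 14862 genes, which held 99.8% of counts. After TMM scaling, 1 model with a mean for each group was fitted to all 44 libraries and 19 comparisons were tested by quasi-likelihood in edgeR (4.0.16, R 4.3.3), each Benjamini-Hochberg adjusted over all genes with a threshold of 0.05. SE is the log2 change over the square root of F. The 11 libraries of the clock split were set by the largest gap that leaves at least 5 libraries on each side. Members given in full were the 5 largest rises and 5 largest falls among called members in WT on CD-HFD, the 3 and 3 largest elsewhere, up to 6 per interaction by adjusted p, and Ppara, Cpt1a and Cd36; of the pathway genes, 4 chosen ones and per list the 2 largest rises and falls. The members and lists were chosen with earlier results of these data known. Exon lengths came from GENCODE M21, and promoter windows from RefSeq on GRCm38.p6, a different build from the authors', so no coordinate was carried between them. Alternatives were RLE scaling, scaling by library size only, DESeq2 (1.42.0), a fit with no count filter, one on the compared groups only, a block for the replicate number, a robust fit, a clock phase covariate, within 1 clock phase, and leaving out each library. Leaving out WT control replicates 5 and 6 was added after seeing the data. The fits were tested on simulated data. Some items are not reported here. Counts have no molecular identifiers, so precision covers counting and sampling error only.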

Additional observations from a re-analysis of the deposited data

Results flagged for a closer look

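In 7 cases a single library stood far from the rest of its group by Dixon's criterion, among 161 tests of a gene in a group, and chance flags about 1 in 20. Ppara was low in Ripk3KO CD-HFD replicate 1 at 53.9 CPM and high in MlklKO CD-LFD replicate 3 at 85.3. Cpt1a was high in Ripk3KO control replicate 3 at 555 CPM, Acaa1a in WT CD-LFD replicate 4 at 302, and Pdk4 in Ripk3KO CD-HFD replicate 3 at 36.6. Decr2 was low in Ripk3KO CD-HFD replicate 1 at 163 CPM, and Vnn1 in MlklKO control replicate 6 at 8.05.

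The diet response differed between a knockout and WT for 9 pairs of gene and diet, tested as interactions by the edgeR quasi-likelihood test. They were Pdk4 in Ripk3KO on CD-HFD at 2.41, and in MlklKO on CD-LFD Creb3l3 at 0.607, Decr1 at 0.927, Acaa1a at 0.838, Decr2 at 1.0, Pex11a at 1.02, Acot1 at 2.96, Acot3 at 4.90 and Acot4 at 2.03, as log2 differences of response. All WT libraries on CD-LFD lie on 1 side of the clock split, so phase and genotype cannot be told apart there.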

How the results depend on the processing

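Counts of called members (of 40) are given here by comparison, and the cause of each shift was not tested. The number of all genes called also moved with the setting, so a shift is not by itself a result about the members. In WT on CD-LFD the count of 23 became 11 by library size alone, 15 without a count filter, 10 with clock phase as a covariate, 9 with the compared groups only and 8 within 1 clock phase, and 13 to 26 without 1 library. Over all genes, 2040 higher and 2077 lower became 1004 and 810 with the compared groups only (11986 tested). Within 1 phase they were 773 and 555 (12745 tested). In WT on CD-HFD, 27 became 15 by library size alone and 22 to 28 without 1 library. Ripk3KO on CD-LFD (6) gave 10 with the replicate block, 11 within 1 clock phase and 4 to 8 without 1 library. Ripk3KO on CD-HFD (15) gave 13 to 17, MlklKO on CD-HFD (14) 12 to 14, and MlklKO on CD-LFD (14) 9 to 13 without 1 library and 24 with the compared groups only. That last fit called 2544 genes higher and 2664 lower of 12293, against 2925 and 2713 of 14862 in the main fit. Between the deficient diets MlklKO (9) gave 5 by RLE and by library size, 17 with the compared groups only and 3 to 10 without 1 library, WT (5) 4 to 6 and Ripk3KO (4) 1 to 3.

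Against WT, control Ripk3KO (3) gave 0 with clock phase, within 1 phase and with the compared groups only, 1 without WT control replicates 5 and 6, and 1 to 5 without 1 library. CD-LFD Ripk3KO (7) gave 2 by library size, 4 without a filter, 0 with clock phase and 0 to 7, and CD-LFD MlklKO (8) 5 by library size, 0 with clock phase and 3 to 10. CD-HFD Ripk3KO (0) gave 2 without a filter, 1 with the replicate block, 3 with the compared groups only, 1 by DESeq2 and 0 to 1, and CD-HFD MlklKO (0) 0 to 0. With the compared groups only, CD-HFD Ripk3KO had 125 of 13886 genes higher and 127 lower, against 31 and 25 of 14862 in the main fit. Control MlklKO (3) gave 5 by library size, 9 with clock phase, 10 within 1 phase, 7 without WT control replicates 5 and 6, 6 by DESeq2 and 2 to 4. The interaction counts were 0 to 0 (Ripk3KO, CD-LFD), 0 to 1 without 1 library and 0 with or within clock phase (Ripk3KO, CD-HFD), 4 without a filter, 1 with clock phase and 4 to 10 (MlklKO, CD-LFD), and 2 within 1 phase, 2 without WT control replicates 5 and 6 and 0 to 1 (MlklKO, CD-HFD).

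Among the named results, estimates that changed sign were Acot3 in MlklKO against WT on CD-LFD with clock phase (-0.0995), and Cpt1a in WT on CD-HFD with clock phase (-0.128), within 1 phase (-0.221) and without WT control replicates 5 and 6 (-0.181). Cpt1a on CD-LFD turned in Ripk3KO by library size (0.185) and without replicate 3 (0.0455), and in MlklKO by library size (0.0455). Of the other called members, Slc25a20 (0.101) and Decr2 (0.0307) in WT and Creb3l3 in Ripk3KO (0.149) turned above 0 on CD-HFD by library size. Of 101 named results, RLE and DESeq2 kept the direction and call of all 101, the replicate block of 95 and a robust fit of 100. No count filter kept 97, library size alone 78 and clock phase as a covariate 73 of the 101, the compared groups only 91 of 100, 1 clock phase 66 of 81 and leaving out WT control replicates 5 and 6 43 of 50. Same-numbered libraries correlated at -0.33 to 0.545 over 64 pairs, 22 of them over 0.1, so the numbers were not taken to pair the libraries. Against control, 4 of 6 pairs were over 0.1 in WT on each diet, with 6 of 6 over 0 on CD-LFD and 4 of 6 on CD-HFD. In WT, 4 of 12 libraries (CD-LFD) and 7 of 12 (CD-HFD) correlated best with their own number. On CD-HFD it was 5 of 8 in Ripk3KO and 5 of 6 in MlklKO, and on CD-LFD 2 of 6 and 0 of 8. No within-phase value exists for WT between the deficient diets, for the knockouts against WT on CD-LFD or for the CD-LFD interactions. Low counts limit Cyp4a31, Acot1, Acot2 and Acot3.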
